A study of Homo sapiens with 6 samples.

Results

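The unnamed gene ENSG00000286966 on chromosome 1 and 4 named genes around it, NMNAT2, ARPC5, RGL1 and COLGALT2, were examined in MDA-MB-231 cells. These 5 rows, of 60605 in the deposited table, were chosen by their identifiers with the measured values of the same comparison already known, since the unnamed gene was higher in every shPUS1 library. Their differences between the groups are therefore given as a description, with no test. The 4 named genes are neighbours but not simply the nearest ones, because other genes lie between NMNAT2 and the unnamed gene.

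MDA-MB-231 is an established human triple-negative breast cancer line. The groups were cells with a control hairpin, shControl, and cells in which PUS1 was targeted by one, shPUS1. PUS1 is a pseudouridine synthase that modifies tRNA and other RNAs. Hairpins were delivered by pLKO.1 lentivirus and the cells were selected with puromycin, so both groups had been infected and selected. Poly(A) RNA was sequenced from 3 libraries in each group, 1 cell line and no other treatment. The labels call the libraries biological replicates, but no source used here says that they came from separate infections, so the spread between them may be partly technical. Which PUS1 hairpin was sequenced is not stated in words in the sources used here.

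An unnamed Ensembl gene is usually a transcribed stretch with spliced exons and no assigned function, and many such genes are long non-coding RNAs. Around this one, the neighbours belong to unrelated pathways. ARPC5 is the smallest subunit of the Arp2/3 complex, which starts branched actin filaments at the leading edge of moving cells. RGL1 is an exchange factor that activates Ral GTPases downstream of Ras. NMNAT2 makes NAD from nicotinamide mononucleotide in the cytoplasm and is best known for keeping axons alive. COLGALT2 adds galactose to hydroxylysine in collagens.

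Gene positions in the deposited table overlapped GENCODE release 29 on GRCh38 for 99.98% of the 58337 shared identifiers. For 74.75% the start and end were the same, among the named members only for COLGALT2. Distances given here therefore hold for the annotation of the deposited table. By its coordinates, ENSG00000286966 runs from 183613537 to 183619335 on the + strand of chromosome 1. It spans 5799 bases, of which 855 are exonic. Neither GENCODE release 29 nor the RefSeq gene table used here lists a gene overlapping it (0 in each), so its exons and biotype are not described here. ARPC5 (ENSG00000162704, 183620846 to 183635783, - strand) points towards it, and 1510 bases separate the ends of the 2 genes. RGL1 (ENSG00000143344, 183636085 to 183928532, + strand) begins 301 bases from the start of ARPC5 and is transcribed away from it. COLGALT2 (ENSG00000198756, 183929854 to 184037729, - strand) lies 310.5 kb beyond the unnamed gene, and NMNAT2 (ENSG00000157064, 183248237 to 183418380, - strand) ends 195.2 kb before it. No annotated span of ARPC5, RGL1 or COLGALT2 overlaps that of the unnamed gene. Whether the counting used strand is not stated in the sources used here. The strand of the reads counted for the unnamed gene is therefore not known. The GENCODE release 29 transcripts of the 4 named members shared no stretch of 100 bases with another gene of that release (0 shared stretches for each). Only the transcribed direction was searched, and the unnamed gene is not in that release. The search therefore does not show that reads were counted for a single gene.

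ARPC5 and RGL1 have annotated starts that point in opposite directions from one short interval, and that interval is shown because one of these genes was higher in shPUS1 cells while the other overlapped between the groups. The RefSeq promoter windows, from 250 bases before to 50 bases after each start, overlap by 175 bases at chr1:183635859-183636033 (GRCh38.p14). The sequence is written on the + strand, with a match to GGGCGG and the reverse complement of CCAAT in capitals.

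ARPC5 and RGL1 shared promoter bases: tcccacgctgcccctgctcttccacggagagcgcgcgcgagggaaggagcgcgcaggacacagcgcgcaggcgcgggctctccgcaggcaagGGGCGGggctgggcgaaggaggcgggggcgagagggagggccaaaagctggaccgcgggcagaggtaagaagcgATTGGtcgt

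The shared stretch was 72% G or C and held 21 CG pairs. The whole windows held 37 CG pairs for ARPC5 and 29 for RGL1 at this start, against a median of 14 over all 35116 promoter windows of the same length in the table. Motifs were searched as exact letters on both strands, and none of them overlaps another. The shared stretch held 1 CCAAT, 1 GGGCGG and 0 TATAAA, which 34.6%, 45.0% and 11.5% of all windows hold. Those shares are over whole windows, which are longer than the shared stretch, so they are not a like comparison. RGL1 has a second RefSeq start in the table, with a window at chr1:183804870-183805169 that held 22 CG pairs, a CCAAT and no GGGCGG, and which start was used in these cells was not measured. A match is a run of letters and not a measured binding site, and the missing TATAAA says only that these letters are not in this stretch.

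The unnamed gene was the member with by far the greatest difference. Its counts were 104, 25 and 87 in shControl replicates 1, 2 and 3 and 2046, 2453 and 2892 in shPUS1 replicates 1, 2 and 3. As CPM (counts relative to library size, adjusted by edgeR's TMM factors) these were 6.81, 1.31 and 5.93 against 114, 134 and 171. Every shPUS1 library was above every shControl library, and the lowest shPUS1 value was 16.7 times the highest shControl value. The mean was 140 ± 28.8 CPM in shPUS1 and 4.68 ± 2.95 CPM in shControl (SD, n = 3 each), a ratio of 29.8.

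The controls were not alike for this gene. Its CPM differed 5.19-fold between the highest and lowest shControl library, and 1.5-fold between the shPUS1 libraries. shControl replicate 2 held the lowest value, on 25 reads in the deepest library, and the ratio of the shPUS1 mean to that library alone was 107. Against shControl replicates 1 and 3 the ratio was 21.9. The log2 fold change from the edgeR fit was 4.92 (SE 0.515). In bulk RNA, more cells containing a transcript cannot be told apart from more transcript in each cell.

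**Figure D1:**
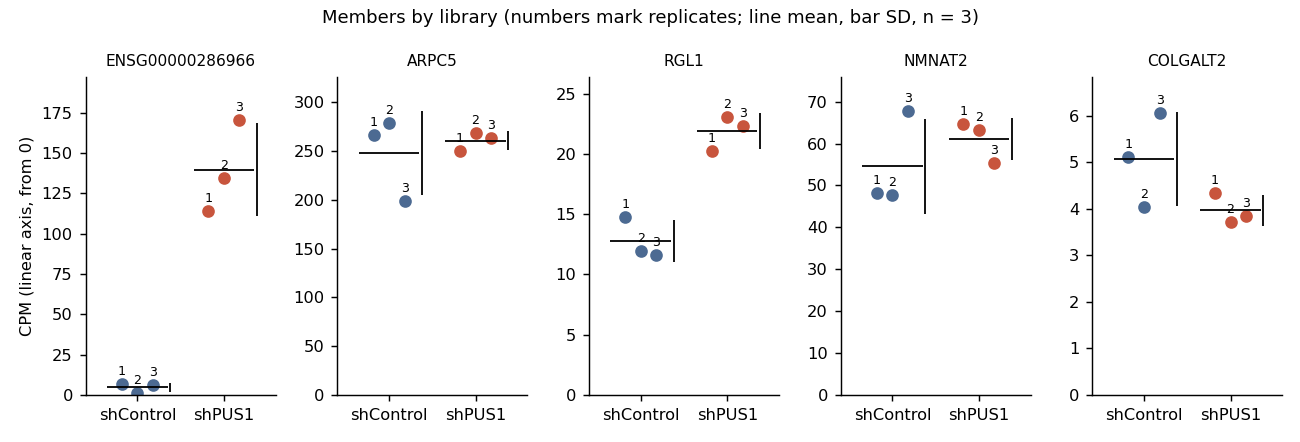
CPM (linear axis from 0) of the 5 members in each library. Points are libraries numbered by replicate, horizontal lines are group means and vertical bars are SDs (n = 3). The unnamed gene sits at 1.31 to 6.81 in shControl and 114 to 171 in shPUS1, RGL1 also separates the groups, and ARPC5, NMNAT2 and COLGALT2 overlap.

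RGL1 was the other member that did not overlap between the groups. Its CPM was 14.8, 11.95 and 11.6 in shControl and 20.3, 23.1 and 22.3 in shPUS1, from 170 to 228 and 364 to 422 counts. All shPUS1 libraries were higher, with means of 21.9 ± 1.47 and 12.8 ± 1.76 CPM (SD, n = 3 each), a ratio of 1.71 and a log2 fold change of 0.78 (SE 0.164). That fold was under the log2 value of 1 asked of a called gene.

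ARPC5, the closest member to the unnamed gene, differed little between the group means. Its values were 267, 279 and 199 CPM in shControl and 250, 269 and 263 CPM in shPUS1. The shPUS1 values lay inside the shControl range, and the log2 fold change was 0.07 (SE 0.15). shControl replicate 3 was the low library here, a different one from the library that was low for the unnamed gene.

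NMNAT2 was measured at 48.3, 47.6 and 67.7 CPM in shControl and 64.6, 63.3 and 55.3 CPM in shPUS1. The groups overlapped, with shControl replicate 3 the highest of all 6 libraries, and the log2 fold change was 0.16 (SE 0.169). Its deposited counts were not whole numbers in 5 of the 6 libraries, with a tolerance of 0.001. COLGALT2 had the lowest FPKM of the members in both groups, with 78, 77 and 89 counts in shControl and 78, 68 and 65 in shPUS1. In CPM this was 5.11, 4.04 and 6.06 against 4.34, 3.72 and 3.84. The ranges overlapped and the log2 fold change was -0.35 (SE 0.241).

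Of the 5 members, 1 was past the threshold used throughout (adjusted p below 0.05 together with a log2 fold change of 1 or more in size), namely the unnamed gene, in the higher direction. Over all 14748 genes tested, 0.888% (131) were past that threshold as higher and 0.481% (71) as lower in shPUS1. Groups did not overlap for 2 of the 5 members, both higher in shPUS1, and every shPUS1 library was above every shControl library in 18.8% of tested genes and below in 17.3%. Since the members were chosen from this same comparison, these counts are a description and nothing is read from them. The call of the unnamed gene was lost in 4 of the 6 fits that left out a library, namely without shControl replicate 1 and without shPUS1 replicate 1, 2 or 3, where 11, 11, 6 and 0 genes in all were past the threshold. Its call was kept in the 8 alternatives that used all libraries. These refit the values by which the gene was chosen, so a kept call gives no separate support.

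Levels of different genes were compared as deposited FPKM, which are counts scaled by exonic length and library total. In shControl the order was ARPC5 at 23.4 ± 3.62 FPKM, NMNAT2 at 7.93 ± 1.85, the unnamed gene at 5.58 ± 3.58, RGL1 at 2.43 ± 0.359 and COLGALT2 at 0.657 ± 0.150 (SD, n = 3). The ranges of NMNAT2 and the unnamed gene overlapped, as did those of the unnamed gene and RGL1, so their order is not fixed by these libraries. In shPUS1 the unnamed gene came first at 162 ± 33.6 FPKM, ahead of ARPC5 at 24.3 ± 1.01, NMNAT2 at 8.71 ± 0.714, RGL1 at 4.09 ± 0.297 and COLGALT2 at 0.507 ± 0.0379. No neighbouring ranges overlapped in that order. Apart from the move of the unnamed gene to the top, the named genes kept one order in both groups.

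Read against ARPC5 in the same library, the unnamed gene was at 5.66, 6.22 and 8.09 times the ARPC5 FPKM in the 3 shPUS1 libraries. In the shControl libraries it was ARPC5 that was higher, by 3.15, 17.1 and 2.69 times. Library scaling cancels in this ratio, but exonic length does not. The length divided by was 855 bases for the unnamed gene and 10650 for ARPC5. By counts ARPC5 was the higher in every shPUS1 library too, at 4499, 4914 and 4456 against 2046, 2453 and 2892. The order of the 2 genes in shPUS1 thus depends on the length used.

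**Figure D2:**
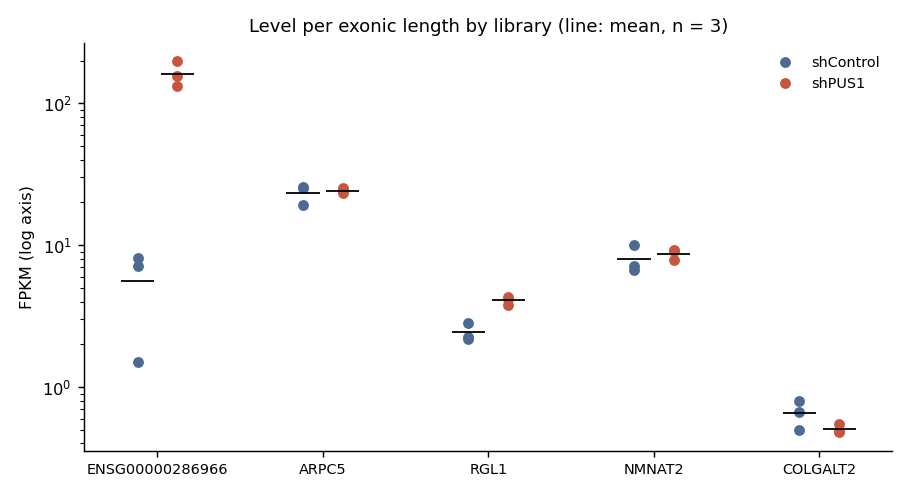
Deposited FPKM (log axis) of the 5 members in each library, with lines at the group means (n = 3). The unnamed gene lies below ARPC5 in every shControl library and above it in every shPUS1 library, while the other members keep their order.

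Among all 60605 rows, the unnamed gene ranked 133 by mean FPKM in shPUS1 and 6709 in shControl. Among the 20014 rows with no symbol it ranked 2 in shPUS1 and 79 in shControl. It took between 0.0112% and 0.0169% of all counts in the shPUS1 libraries. By fitted log2 fold change it was ranked 9 of 14748, and the 8 genes above it were scarce, at most 10.4 CPM on average in shPUS1, with 4 of them at 0 counts in every shControl library. A fitted fold for such genes depends on the prior count added in the fit, and with a prior count of 2 the unnamed gene was ranked 2. Among the 1675 tested genes whose mean CPM in shPUS1 was no lower than that of the unnamed gene, the next highest log2 fold change was 3.14, for SLC5A3, the myo-inositol transporter. RGL1 was ranked 855, NMNAT2 4947, ARPC5 6044 and COLGALT2 11204. The tested rows with no symbol had a median log2 fold change of 0.01 over 1019 rows, with 7 past the threshold as higher and 3 as lower.

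**Figure D3:**
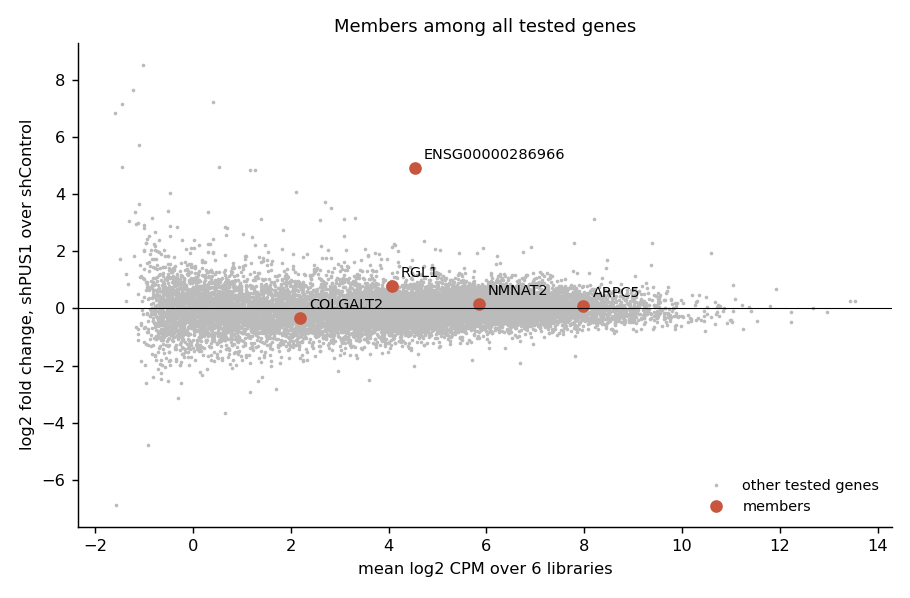
Log2 fold change (shPUS1 over shControl) against mean log2 CPM over 6 libraries for all 14748 tested genes, with members in red. The unnamed gene stands at 4.92, and the genes above it lie at the low end of the abundance axis, while the 4 named members lie within the cloud.

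The remaining genes within 1 Mb on each side were then taken by position alone. They filled 36 rows, of which 18 had 0 counts in all libraries, 11 had counts but were too low to test (18 or fewer in any library) and 7 were tested. None of the 7 was past the threshold by edgeR's quasi-likelihood test with Benjamini-Hochberg adjustment. Over all tested genes 0.888% were past it as higher and 0.481% as lower, so nothing is read from 0 of 7. By a looser measure, 3758 of all 14748 tested genes had an unadjusted p under 0.05 by edgeR. For 2 of the 7 (28.6%) every shPUS1 library was higher and for 0 every one was lower, beside 18.8% and 17.3% of all tested genes. The median log2 fold change of the 7 was 0.07, beside -0.03 over all tested genes. Without shControl replicate 2, 1 of the 7 was past the threshold, in a fit where 246 genes in all were past it as higher and 251 as lower.

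Groups overlapped for the neighbours named here. Their log2 fold changes were 0.16 for LAMC1, which encodes a laminin chain, -0.60 for the RNA helicase DHX9, -0.09 for the tRNA splicing subunit TSEN15 and -0.26 for C1orf21. The value for DHX9 rested on shControl replicate 2, at 398 CPM against 132 to 136 in the other controls, and was 0.13 without that library. TSEN15 also changed sign without it, to 0.17. Within 5 Mb on each side, 36 of 181 rows were tested and 0 were past the threshold by edgeR, and the lowest adjusted p was 0.0452. In that window 9 tested genes (25%) were higher and 6 (16.7%) lower in every shPUS1 library. Over all tested genes these shares were 18.8% and 17.3%, so nothing is read from the counts.

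**Figure D4:**
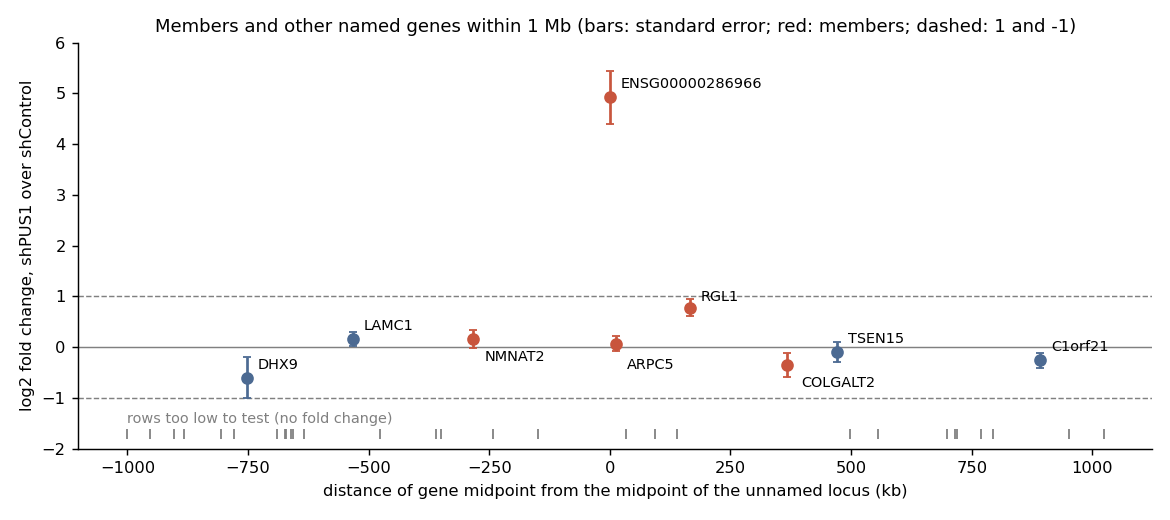
Log2 fold change (shPUS1 over shControl, bars are standard errors) against distance in kb between gene midpoints and the midpoint of the unnamed gene. Members are red, the 4 other tested genes named in the text blue, and tested genes not reported by name are not drawn. Dashed lines mark 1 and -1, and ticks mark rows too low to test. The unnamed gene stands at 4.92, RGL1 at 0.78 and the nearest tested gene, ARPC5, at 0.07. The 2 of the 7 other tested genes that were higher in every shPUS1 library are among those not drawn.

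The pathways of the 4 named members were followed through lists of their partners, chosen with earlier results of these data known. Each member was left out of its own list's counts. Those counts stand beside shares over all tested genes of 0.888% past the threshold as higher and 0.481% as lower. Every shPUS1 library was above every shControl library in 18.8% of all tested genes and below in 17.3%. The lists are short and were not tested as sets, so no pathway result is read from their counts. Over the 4 lists 1 partner was past the threshold, the collagen chaperone SERPINH1, which fell.

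The Arp2/3 list held the other subunits of the complex, its activators and its inhibitors, and all 20 were tested. Past the threshold were 0 as higher and 0 as lower by edgeR, while 2 were higher and 5 lower in every shPUS1 library, and the median log2 fold change was -0.23. ARPIN, an inhibitor of the complex, had the smallest adjusted p, at a log2 fold change of -0.94 (SE 0.207, adjusted p = 0.0563 by edgeR). The activators WASL and WASF3 were at 0.53 (adjusted p = 0.0802 by edgeR) and 0.53 (adjusted p = 0.0907 by edgeR). The subunit ARPC1A was at -0.49 (adjusted p = 0.117 by edgeR), and the ARPC5 paralogue ARPC5L at -0.16 with overlapping groups.

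The Ral list held 14 other genes, of which 13 were tested, 0 were past the threshold in either direction and 4 were higher in every shPUS1 library with 0 lower. The median log2 fold change was 0.10. RALA, 1 of the 2 Ral GTPases, was at 0.57 (adjusted p = 0.117 by edgeR). RALGAPA1 and RALGAPA2, catalytic subunits of the complexes that switch Ral off, were at 0.68 (adjusted p = 0.118 by edgeR) and 0.56 (adjusted p = 0.161 by edgeR), and their partner RALGAPB was at 0.34 (adjusted p = 0.227 by edgeR). RGL2 and RGL3, the exchange factors related to RGL1, were at -0.11 and 0.03 with overlapping groups.

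The NAD list held 14 other genes, of which 10 were tested and 0 were past the threshold, with 0 higher and 2 lower in every shPUS1 library and a median log2 fold change of -0.26. The nuclear enzyme NMNAT1 was at -0.49 (adjusted p = 0.167 by edgeR) and NADSYN1, which makes NAD by amidation, at -0.31 (adjusted p = 0.188 by edgeR). NAPRT and NMRK1, which start synthesis from nicotinic acid and nicotinamide riboside, were at -0.41 (adjusted p = 0.275 by edgeR) and -0.37 (adjusted p = 0.369 by edgeR). The mitochondrial NMNAT3 had 0 CPM in shControl and was not tested.

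The collagen list held 16 other genes, of which 15 were tested, 0 were past the threshold as higher and 1 as lower, with 1 higher and 6 lower in every shPUS1 library and a median log2 fold change of -0.34. SERPINH1 fell by 1.01 on the log2 scale (SE 0.154, adjusted p = 0.0319 by edgeR). It was past the threshold in only 1 of the 6 fits that left out a library, and without shControl replicate 2 it stood at -0.86 (adjusted p = 0.00160 by edgeR), short of the fold required. CRTAP and P3H3, of the prolyl 3-hydroxylase family and its partners, were at -0.46 (adjusted p = 0.0590 by edgeR) and -0.83 (adjusted p = 0.0950 by edgeR). The lysyl hydroxylase PLOD1 was at -0.55 (adjusted p = 0.0732 by edgeR). P4HA1, a prolyl 4-hydroxylase subunit named after its values were seen, was past the threshold only without shControl replicate 2, at -1.02 (adjusted p = 0.00204 by edgeR). COLGALT1, the more abundant paralogue of COLGALT2, was at -0.36 and lower in every shPUS1 library (adjusted p = 0.0972 by edgeR).

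**Figure D5:**
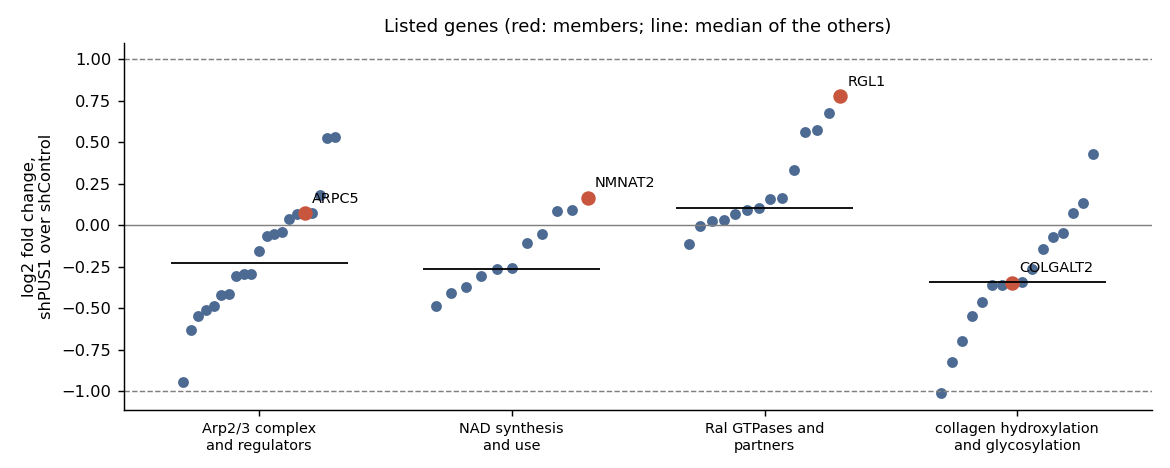
Log2 fold change (shPUS1 over shControl) of each tested gene in the 4 pathway lists, members in red, lines at the median of the other genes, dashed lines at 1 and -1. Only SERPINH1, at -1.01, lies past a dashed line, and the medians run from -0.34 to 0.10.

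The genes whose log2 CPM followed the unnamed gene most closely over the 6 libraries were TMEM171 (Pearson r = 0.999), MORC3 (0.999), CALD1 (0.998), ARID3B (0.997) and TPBG (0.997). With the group means removed r was 0.999, 0.997, 0.982, 0.974 and 0.961. CALD1 encodes the actin-binding protein caldesmon, MORC3 a chromatin ATPase and TPBG a cell surface glycoprotein. These 6 points share their libraries and depths, and shControl replicate 2 is the far point within the groups, so the values are a description. For the named members r was 0.955 for RGL1, 0.510 for NMNAT2, 0.123 for ARPC5 and -0.500 for COLGALT2. With the group means removed it was 0.468, 0.332, -0.486 and 0.731, so the sign turned for ARPC5 and COLGALT2.

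PUS1 was measured in every library as a check of the labels. Its CPM was 14.5, 27.5 and 12.1 in shControl and 6.57, 5.47 and 5.37 in shPUS1, a log2 fold change of -1.64 (SE 0.322, adjusted p = 0.0462 by edgeR). The control library with the most PUS1, replicate 2, was also the one with the least of the unnamed gene. Over the 6 libraries r between the 2 genes was -0.981, and with the group means removed -0.954. PUS1 was targeted and the unnamed gene was chosen for differing between the groups, so a large r was built in. Within the groups it leans on shControl replicate 2, and other genes had a lower r (PUS1 ranked 14656 from the highest). A relation between the levels of these genes was not tested.

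Library totals ran from 14241505 to 19625998 counts. shControl replicate 2 stood apart, with r of 0.951 and 0.952 to the other controls, against 0.981 between those and 0.987 to 0.991 among the shPUS1 libraries. No 2 replicates agreed within sampling noise. Of 5 mesenchymal markers of the line 5 were tested and of 10 luminal and epithelial markers 7, with 0 past the threshold in either list. Summed FPKM of the mesenchymal list was 929 to 1138 in shControl and 728 to 772 in shPUS1. That of the luminal list was 200.1 to 228 in shControl and 164 to 179 in shPUS1. Most of the luminal sum came from keratins, with KRT19, KRT18 and KRT8 at 82.6, 70.5 and 47.5 FPKM in shControl. There ERBB2 was at 6.26, PGR at 0 and FOXA1 at 0.01 FPKM. Both sums were lower in shPUS1, and their part in the members' values was not tested.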

How the data were processed

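RNA-seq values of 6 MDA-MB-231 libraries, 3 shControl and 3 shPUS1, were taken from one deposited table. The authors deposited estimated counts per gene, which are not all whole (22.4% to 24.0% of non-zero counts per library, tolerance 0.001), and FPKM, which equal those counts scaled by exonic length and library total. The submitters' processing notes name HISAT2 and HTSeq 0.6.1. Groups came from the sample labels. The members and gene lists were chosen with earlier results of these data known.

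Counts were rounded and tested with edgeR 4.0.16 in R 4.3.3 (filterByExpr, TMM, quasi-likelihood test, Benjamini-Hochberg adjustment over all 14748 genes tested). The threshold was an adjusted p below 0.05 with a log2 fold change of 1 or more in size. SE was the log2 fold change divided by the square root of F. The study's own analysis used DESeq2, run here (1.42.0) as an alternative beside limma 3.58.1 on log2 FPKM. The edgeR fit was first run with a prior count of 2 and then with the default of 0.125. The default is reported, a choice made after the results of both had been seen, because it gave the same number of called genes as an earlier analysis of this table; it also moved the unnamed gene's rank by log2 fold change from 2 to 9. Correlations used log2 CPM with a prior count of 2. The scripts were tested on simulated counts.

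Named genes were the 5 members with every library's values, tested genes with a symbol within 1 Mb (full values for called genes and for the nearest tested gene on each side by midpoint), up to 4 genes per list with the smallest adjusted p, the 5 genes with the highest r to the unnamed gene, and PUS1. ARPC5L, RGL2, RGL3, NMNAT3, P4HA1, COLGALT1 and SLC5A3 were given values beyond that rule after these had been seen. Some tested genes within 1 Mb are not reported here by name. Promoter bases are from RefSeq (GRCh38.p14), whose table held windows for 3 of the 5 members. Library totals of 14241505 to 19625998 counts limit the precision of low genes.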

Additional observations from a re-analysis of the deposited data

How the results depend on the processing

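The unnamed gene's log2 fold change stayed between 4.45 and 5.31 over 14 alternatives, and from 4.45 to 5.31 when each library was left out, although 4 of those 6 fits no longer called it. RGL1 ran from 0.57 to 0.89, the lowest with limma on log2(FPKM + 1), NMNAT2 from 0.07 to 0.34 and COLGALT2 from -0.50 to -0.13. ARPC5 ran from -0.08 to 0.16, so its sign depended on which library was left out. The prior count of 2 in the fit, added after seeing the data, gave 4.89 for the unnamed gene, rank 2 in place of 9 by log2 fold change, and 200 genes past the threshold (130 higher, 70 lower) in place of 202.

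The number of genes past the threshold moved from 202 to 536 with no filter on low counts, 478 with DESeq2, 72 and 107 with limma on log2(FPKM + 1) and log2(FPKM + 0.1), 380 with no fold threshold, and 0 to 497 when libraries were left out in turn. It was 497 without shControl replicate 2 and 0 without shPUS1 replicate 3. Neighbours past the threshold went from 0 to 1 with no filter, with DESeq2 and without shControl replicate 2 (0 to 1 when libraries were left out). Listed genes past it went from 1 to 0 with limma on log2(FPKM + 1), and from 0 to 1 when libraries were left out. The PUS1 log2 fold change was -1.001 and -1.48 with limma on log2(FPKM + 1) and log2(FPKM + 0.1), not past the threshold, and -1.86 to -1.20 when libraries were left out, not past it in 4 of those fits. The causes were not tested.

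Replicate numbers did not pair the libraries (correlations of deviations -0.0529, -0.0256 and -0.190). With the number as a replicate block, 18 genes, 0 listed genes and 0 neighbours were past the threshold, and PUS1 was at -1.55 (adjusted p = 0.0969 by edgeR). No scaling moved the median of all genes by over 0.1 on the log2 scale.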
